A study of Mus musculus with 7 samples.

Results

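The genes of steroid synthesis followed here through the mouse gonad from E11.5 to P5 were Star, Cyp11a1, Cyp17a1, Cyp19a1, Hsd3b1, Hsd17b1, Hsd17b7, Srd5a1 and the aldo-keto reductases Akr1c14 and Akr1cl. These were 10 of the 31053 genes in the gene list, and each symbol matched 1 row. The cells came from pooled gonads of untreated wild-type C57BL/6J mice, labelled gonad at E11.5 and ovary at E12.5 and E14.5, at E16.5 and E18.5, and at P1 and P5, and each age was 1 droplet library. Dissociation in trypsin took 20 min at E11.5 and E12.5, 40 min at E14.5 and E16.5, 60 min at E18.5 and 80 min at P1 and P5, so age, library and digestion time cannot be told apart. Between 3848 and 11060 cells per library had at least 200 detected genes (50823 in all), with a median of 6349 to 11060 unique molecular identifiers (UMIs, each standing for 1 captured transcript) per cell.

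Steroid hormones are made from cholesterol. Star brings cholesterol into mitochondria, Cyp11a1 cuts its side chain to give pregnenolone, Hsd3b1 turns pregnenolone into progesterone, Cyp17a1 leads on to androgens and Cyp19a1, the aromatase, turns androgens into estrogens. Enzymes of the Hsd17b, Srd5a and Akr1c families then change how active a steroid is, and in the adult ovary theca cells make androgens that granulosa cells aromatize. Pregranulosa cells are the fetal somatic cells that surround oocytes and become granulosa cells.

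Pregranulosa cells were taken as cells with at least 3 UMIs of Wnt6 and Kitl together and were split by Gng13, a G protein subunit that the study located in pregranulosa cells of the ovarian cortex, into Gng13-low (at most 1 UMI) and Gng13-high (at least 3 UMIs) cells. Gng13-low cells numbered 142, 630, 1269, 1690, 628, 829 and 1312 from E11.5 to P5, and Gng13-high cells 401, 2491, 1171, 642, 340 and 139 from E12.5 to P5. The 11 Gng13-high cells of E11.5 were too few to report. At E11.5 the study takes Wnt6-positive cells as likely bipotential precursors, of Sertoli or pregranulosa cells, so the class name is only a label at that age. Stroma, gated on Nr2f2, Pdgfra and Tcf21, numbered 668 to 4082 cells per library. None of the 10 genes took part in a gate. Foxl2, a transcription factor of granulosa cells that the gates did not use, was at a median of 233 counts per 1000000 UMIs of the class (CPM) in Gng13-low cells, 92.4 in Gng13-high cells and 27.9 in stroma. Between 15.7% and 32.1% of the cells of a library fell in no class.

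The libraries carry limits that touch these genes. A UMI of a Y-linked gene was present in 28.4% of cells at E11.5 and, against the ovary label, in 7.10% (334 cells) at E12.5, but in at most 0.158% of cells later. Erythroid cells, which should lack these enzymes, were used to gauge free RNA. Over all libraries they held 0 UMIs of Cyp19a1, 1 of Cyp11a1, 2 of Cyp17a1 and 5 of Hsd17b1, and at most 4.42 CPM of Hsd17b7 in a library. They were not free of the Hsd3b family, with up to 6.83 CPM of Hsd3b1 and 513 CPM of the near-identical Hsd3b6 in a library. Insl3, Cyp21a1 and Cyp11b1, which mark Leydig and adrenal steroid cells, gave 7, 11 and 13 UMIs in all cells together. The other genes listed for such cells, Hsd3b6, Lhcgr and Mc2r, were not that sparse. Lhcgr gave up to 325 UMIs in the pregranulosa cells of an ovary library (E16.5). Mc2r gave up to 53 in the stroma of an ovary library (E12.5). Libraries shared at most 136 barcodes (at most 1.65% of the smaller library). Every level below is the summed UMIs of a class in CPM, its brackets hold an exact 95% Poisson interval that covers counting error only, and with 1 library per age no difference between ages was tested. Of the members, Cyp11a1, Srd5a1, Akr1c14 and Akr1cl overlap another annotated gene. Levels were not tested between genes, and the shares of Akr1c14 in the UMIs of Akr1c14 and Akr1cl given below are a description only.

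RefSeq (GRCm38.p6) held a promoter for 7 of the 10 genes (10 promoters) and none here for Star, Cyp17a1 and Hsd17b1. The promoters of the 3 genes on which most of the results turn, Akr1c14 at chr13:4059341-4059590 (+), Akr1cl at chr1:65032760-65033009 (-) and Hsd3b1 at chr3:98859795-98860044 (-), are given as the 250 bases before the start site, 5' to 3' on the gene's strand. The Akr1c14 promoter lies inside the gene span given below (chr13:4049011-4090688), so its RefSeq start site is not the start of that span. Capitals mark matches on either strand to any of 3 motifs. One was AAGGTCA, bound by Nr5a1 and Nr5a2. Another was CCAAT, bound by nuclear factor Y. The last was AGATAA, bound by Gata factors. No match overlapped another.
Akr1c14: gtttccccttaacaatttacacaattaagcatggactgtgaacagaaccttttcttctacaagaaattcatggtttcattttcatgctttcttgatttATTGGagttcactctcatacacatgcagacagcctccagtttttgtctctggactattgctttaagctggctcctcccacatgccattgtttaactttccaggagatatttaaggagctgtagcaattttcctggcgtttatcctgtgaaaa
Akr1cl: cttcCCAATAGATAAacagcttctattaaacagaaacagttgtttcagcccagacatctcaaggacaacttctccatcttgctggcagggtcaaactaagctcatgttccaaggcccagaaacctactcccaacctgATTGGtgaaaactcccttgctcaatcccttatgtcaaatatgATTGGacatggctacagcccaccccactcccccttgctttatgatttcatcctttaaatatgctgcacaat
Hsd3b1: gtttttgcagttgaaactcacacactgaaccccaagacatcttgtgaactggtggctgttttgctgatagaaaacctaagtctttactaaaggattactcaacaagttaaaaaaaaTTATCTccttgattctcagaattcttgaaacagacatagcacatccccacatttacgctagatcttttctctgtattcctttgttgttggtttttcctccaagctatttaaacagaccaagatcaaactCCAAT
Counted from the start site, Akr1c14 held CCAAT at -152 on the opposite strand. Akr1cl held CCAAT at -246, -113 and -71 and, directly after the first of these, AGATAA at -241. Hsd3b1 held CCAAT at -5 and AGATAA at -134. CCAAT was in 7 of the 10 promoters and in 33.8% of all 32851 RefSeq promoters of this length, and AGATAA was in 2 of the 10 and in 9.99% of all. AAGGTCA was in none of these 10 and in 4.08% of all. A match describes letters and is not a binding site.

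The first comparison asked which of the genes differ between the 2 kinds of pregranulosa cell. Akr1c14, Akr1cl and Hsd17b7 were higher in Gng13-low cells, by 1.17 to 2.78 on the log2 scale, as was the sparsely detected Hsd17b1. Star and the sparsely detected Cyp17a1 were higher in Gng13-high cells. The test was edgeR's quasi-likelihood test on UMIs summed per class in the 6 ovary libraries, with library as a block and Benjamini-Hochberg adjustment over all 12222 genes tested, and it asks whether a difference recurs over ages. Of 8 members tested, 4 were higher in Gng13-low cells and 2 in Gng13-high cells, against 9.47% and 9.33% of all genes tested. From these same data the study had already named Akr1c14, Hsd17b7 and Hsd17b1 as enriched in the pregranulosa cells it called bipotential-derived. The members were chosen with earlier results known, so this count is no independent support for a difference. Of the 2298 genes called, 50.4% were higher in Gng13-low cells, and 63.7% of 2520 without TMM scaling (trimmed mean of M-values, which sets the libraries' relative scale). Cyp11a1 and Cyp19a1 were under the expression filter. Without the library block, which pairs the classes of each library, 1 of the 8 was called (Cyp17a1) and 108 genes in all.

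Akr1c14 makes the reductase that inactivates dihydrotestosterone and converts dihydroprogesterone to allopregnanolone (ENSMUSG00000033715, chr13:4049011-4090688, plus strand, GRCm38). Its level in Gng13-low cells was 1.43, 21.6, 51.0, 116, 248, 257 and 195 CPM from E11.5 to P5. In Gng13-high cells it was 6.43, 8.69, 12.49, 25.0, 19.0 and 55.3 CPM from E12.5 to P5. Gng13-low cells were the higher class in each of the 6 libraries, by 3.36 times (2.30 to 5.03) at E12.5, 13.5 times (10.4 to 17.9) at P1 and 3.52 times (2.79 to 4.52) at P5. The log2 difference over libraries was 2.78 ± 0.24 (SE, 6 libraries, edgeR adjusted p = 0.000147). Erythroid cells held at most 3.79 CPM and stroma at most 7.04 CPM. After thinning every cell to 2000 UMIs, 32.5% of Gng13-low cells (29.3 to 35.8, exact binomial interval, median depth 7619 UMIs before thinning) and 3.53% of Gng13-high cells (1.84 to 6.08, median depth 8639.5) had an Akr1c14 UMI at P1, against 0.335% of erythroid cells (median depth 9135). Unthinned levels outside the pregranulosa cells reached 110 CPM in the class gated on Pax8, Pax2 and Cdh16 at E16.5 and 36.3 CPM (20.7 to 58.9, 16 UMIs) in endothelial cells at E11.5. At E14.5 the Pax8-positive class held 59.1 CPM (43.7 to 78.1), above the Gng13-low value but with overlapping intervals.

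Akr1cl, an aldo-keto reductase of the Akr1c type (ENSMUSG00000025955, chr1:65012689-65032759, minus strand), was the member with the most UMIs, 103867 in all kept cells. In Gng13-low cells it stood at 889, 546, 390, 528, 555, 894 and 2235 CPM from E11.5 to P5. In Gng13-high cells it fell from 453 CPM at E12.5 to 179, 135 and 73.3 at E14.5, E16.5 and E18.5, and was at 202 at P1 and 925 at P5. Both classes were therefore lowest in the middle of the series and highest at P5, and the ranges of the classes over ages overlapped. Within a library Gng13-low cells were always higher, by 1.2 times (1.14 to 1.27) at E12.5, 7.57 times (6.78 to 8.46) at E18.5 and 2.42 times (2.28 to 2.56) at P5. The Gng13-low levels of E11.5 and E12.5 include cells with a Y-linked UMI. Those cells held more Akr1cl than the rest of the class, as given under Other observations. Over libraries the log2 difference was 1.56 ± 0.29 (SE, edgeR adjusted p = 0.00526).

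**Figure D1:**
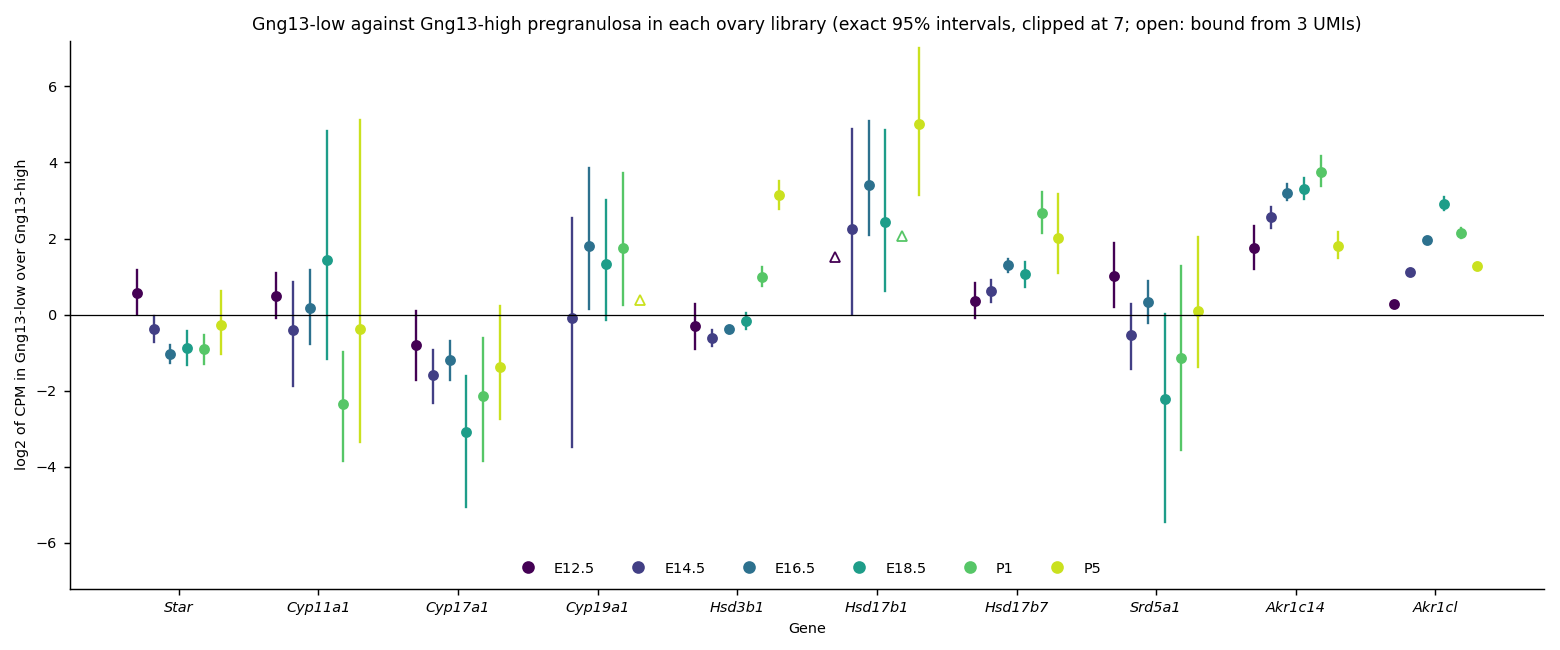
Log2 ratio of the level (CPM) in Gng13-low over Gng13-high pregranulosa cells, 1 point for each gene and ovary library, with exact 95% intervals cut off at 7 and open triangles for lower bounds set from 3 UMIs. Akr1c14 and Akr1cl lie above 0 in all 6 libraries (3.36 and 1.2 times at E12.5). The points of Cyp17a1 lie below 0 in all 6, with intervals that include 0 at E12.5 and P5. Hsd3b1 runs from 0.650 times at E14.5 to 8.79 times at P5.

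Hsd17b7, which acts in cholesterol synthesis and also makes estradiol from estrone (chr1:169949535-169969241, minus strand), was at 12.8 CPM in Gng13-low cells at E11.5 and then at 15.9, 22.2, 54.4, 49.2, 67.9 and 28.1 from E12.5 to P5. In Gng13-high cells it was at 12.3, 14.3, 22.1, 23.6, 10.7 and 6.91 CPM. At E12.5 the interval of the ratio included 1 (1.29, 0.940 to 1.78), and the Gng13-low cells were 6.35 times higher (4.43 to 9.40) at P1. The log2 difference was 1.17 ± 0.24 (SE, edgeR adjusted p = 0.00998). Stroma held 3.97 to 12.8 CPM and the germ cells of P5 19.8 CPM (15.2 to 25.3).

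Hsd17b1, the granulosa enzyme that makes estradiol from estrone (chr11:101078411-101080527, plus strand), was close to the limit of detection until P5. Gng13-low cells held 0 UMIs at E11.5 (3 UMIs would be 2.14 CPM), then 1.62, 0.802, 3.2, 3.23 and 4.23 CPM from E12.5 to P1, and 49.7 CPM (45.8 to 53.9, 590 UMIs) at P5. Gng13-high cells held between 0 and 5 UMIs in each library, at most 1.53 CPM. With so few UMIs in Gng13-high cells the gene entered the test through the Gng13-low libraries, where it is high, so its call is no independent support for a difference. At P5, where Gng13-high cells held 2 UMIs, the ratio was 32.4 (8.92 to 268). The immune class held 3.12 CPM (0.851 to 8.0, 4 UMIs) at E16.5, 6.65 (0.806 to 24.0, 2 UMIs) at E18.5 and 4.79 (2.48 to 8.37, 12 UMIs) at P1, and was the class with the highest level at E18.5 and P1. The only other class near the P5 level was the Sertoli-like class of E12.5 (Sox9 and other testis support cell genes), with 37.7 CPM (28.5 to 49.0), and 78 of its 88 cells had a Y-linked UMI.

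Cyp17a1 and Star went the other way. Cyp17a1, the lyase that leads to androgens (chr19:46667165-46673172, minus strand), was at 5.10, 8.46, 6.40, 7.35, 4.01 and 4.6 CPM in Gng13-high cells from E12.5 to P5, and at 2.94, 2.81, 2.80, 0.860, 0.907 and 1.77 CPM in Gng13-low cells. The level in every Gng13-high library lay above that in every Gng13-low library, with a log2 difference of -1.57 ± 0.25 (SE, edgeR adjusted p = 0.003). The interval of the ratio of low over high included 1 at E12.5 (0.306 to 1.06) and at P5 (0.150 to 1.16, 6 UMIs in Gng13-high cells). Gng13-low cells held only 4 UMIs at E18.5 and 6 at P1, and at most 50 in a library. Cyp17a1 entered the test through the Gng13-high libraries, where it is high, so its call is no independent support for a difference. Gng13-high cells held 54.9% of all 616 Cyp17a1 UMIs of the series. Stroma held 6 UMIs over all 7 libraries.

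Star (chr8:25806555-25815982, plus strand) was at 7.75, 16.4, 24.9, 26.4, 35.7 and 11.51 CPM in Gng13-high cells and at 10.7 CPM in Gng13-low cells of E11.5, then at 11.6, 12.7, 12.2, 14.4, 19.0 and 9.60. The log2 difference was -0.61 ± 0.18 (SE, edgeR adjusted p = 0.0432), and the call was lost in 9 of 19 alternative settings, among them leaving out E14.5, E16.5, E18.5 or P1. From E14.5 the class with the highest level was epithelial cells (gated on Upk3b, Krt19, Krt7, Msln and Upk1b), with 1.37, 8.95, 27.0, 72.5, 71.3, 62.8 and 63.1 CPM from E11.5 to P5, whereas at E11.5 and E12.5 Gng13-low cells held more. Epithelial genes moved with Star inside the Gng13-high class too. Gng13-high cells with 1 to 9 UMIs of the 5 epithelial genes held 28.2 CPM (25.1 to 31.5) at E16.5 and those with none held 18.52 (15.1 to 22.4), a split chosen after the values were seen, and the part of these genes in the Star difference was not tested. Stroma held 1.25 to 5.09 CPM and erythroid cells 0 to 5.13 CPM.

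Hsd3b1 and Srd5a1 were not called. Hsd3b1 (chr3:98852194-98859794, minus strand) was at 0, 7.78, 31.0, 90.4, 74.2, 117 and 432 CPM in Gng13-low cells from E11.5 to P5, and at 9.64, 47.7, 119, 83.6, 58.4 and 49.1 CPM in Gng13-high cells from E12.5. Gng13-high cells were the higher class at E14.5 (ratio of low over high 0.650, 0.560 to 0.753) and E16.5 (0.763, 0.714 to 0.815), and Gng13-low cells at P1 (2.0, 1.70 to 2.37) and P5 (8.79, 6.87 to 11.4). The average over libraries, 0.32 ± 0.42 on the log2 scale (SE, edgeR adjusted p = 0.655), joins these opposite values, and it was -0.16 without P5. Srd5a1, which reduces testosterone to dihydrotestosterone, was at 0.430 to 6.90 CPM in Gng13-low cells and 1.34 to 3.40 CPM in Gng13-high cells of the ovary libraries, with a log2 difference of -0.05 ± 0.32 (SE, edgeR adjusted p = 0.94). Its gene overlaps Nsun2 on the other strand and Gm17108 on the same strand.

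The second comparison set all pregranulosa cells against stroma in the same 6 libraries. Of 8 members tested, 7 were higher in pregranulosa cells and 1 was lower, where 28.9% of 13153 genes tested were higher and 27.5% lower. The log2 difference was 5.95 ± 0.23 for Hsd3b1 (SE, edgeR adjusted p = 1.39e-06) and 4.70 ± 0.26 for Akr1c14 (SE, edgeR adjusted p = 4.65e-06). Hsd3b1 and Akr1c14 each held 1 UMI in stroma at E12.5, and at most 61 and 64 in a later library. They entered the test through the pregranulosa cells, where they are high, so these calls are no independent support for a difference. Cyp17a1 and Hsd17b1 were also called, but with at most 2 and 10 UMIs in the stroma of a library they entered the test in the same way. Star, Akr1cl and Hsd17b7 were higher by 2.41, 2.26 and 1.70. Srd5a1 was the exception, lower in pregranulosa cells by 1.11 ± 0.26 (log2, SE, edgeR adjusted p = 0.00711), with 7.12, 4.90, 7.70, 5.63, 2.5 and 4.91 CPM in stroma from E12.5 to P5 against 5.54, 2.78, 3.53, 1.34, 0.963 and 3.08 in pregranulosa cells. Stroma was the higher class in each of these libraries, but at E12.5 the interval of the pregranulosa over stroma ratio included 1 (0.778, 0.569 to 1.06). Erythroid cells held at most 1.38 CPM.

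Stroma shared some of these transcripts. Akr1cl in stroma was at 5.68, 22.9, 55.2, 92.2, 148, 174 and 248 CPM from E11.5 to P5, rising at every step, while erythroid cells stayed between 0.932 and 7.98 CPM to P1 and reached 50.1 (41.9 to 59.4) at P5. After thinning, 35.0% of stromal cells (32.5 to 37.5) had an Akr1cl UMI at P5 and 5.71% of erythroid cells (3.30 to 9.11), at median depths of 5914.5 and 8768.5 UMIs. Of the UMIs of Akr1c14 and Akr1cl together, Akr1c14 gave 2.69% (2.07 to 3.42) in stroma at P5, 8.01% (7.70 to 8.33) in Gng13-low cells and 7.04% (3.43 to 12.6) in erythroid cells. The part of free RNA in the stromal level was not tested. Hsd3b1 in stroma was at 6.52 CPM (4.98 to 8.37) at P5 and at 6.83 CPM (4.05 to 10.8) in erythroid cells, and no expression was read from it.

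**Figure D2:**
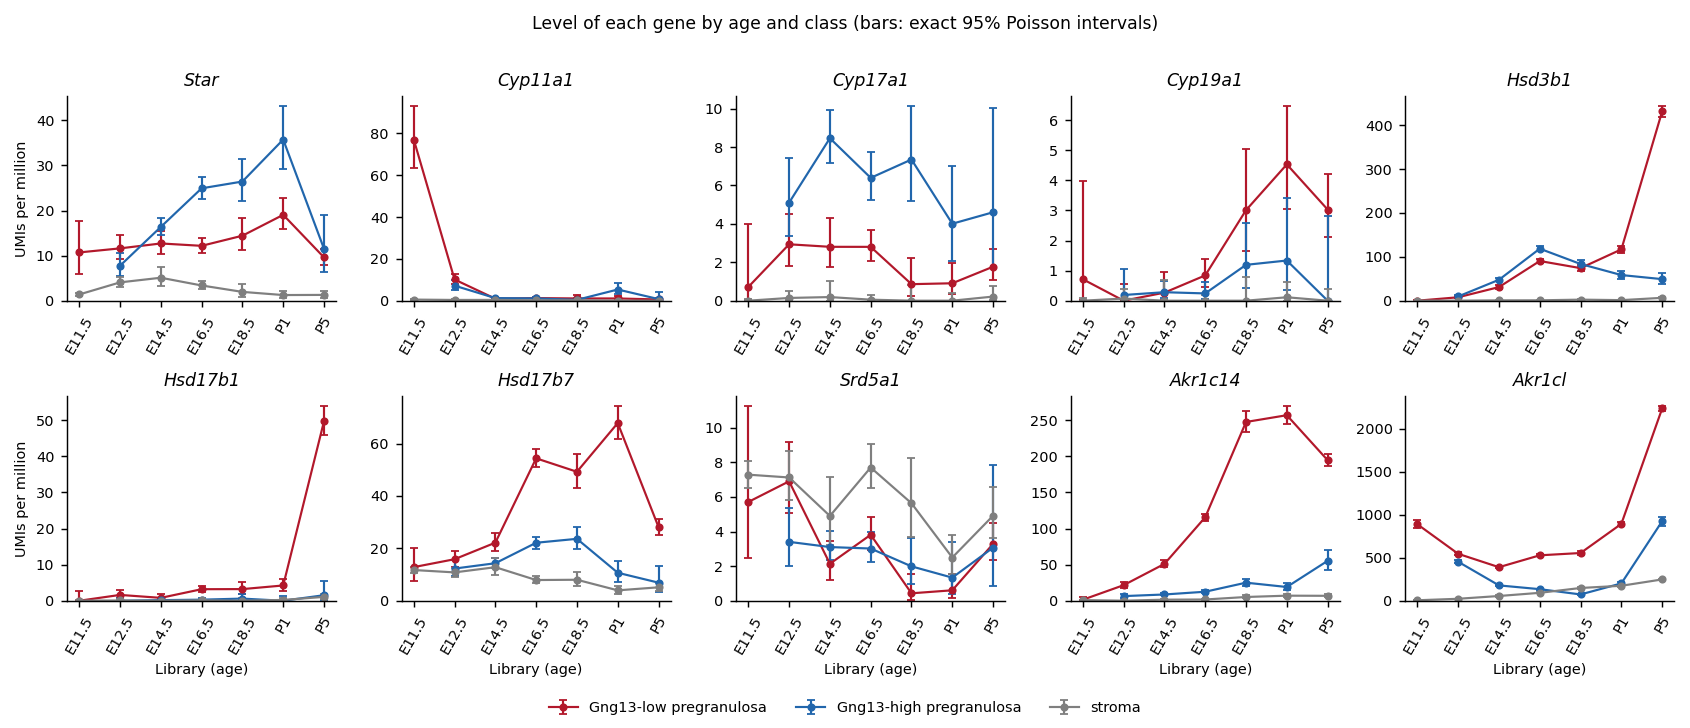
Level of each gene in CPM against library, for Gng13-low pregranulosa cells (red), Gng13-high pregranulosa cells (blue) and stroma (grey), with exact 95% Poisson intervals and a separate axis for each gene. Hsd3b1, Hsd17b1 and Akr1cl are highest in Gng13-low cells at P5 (432, 49.7 and 2235 CPM), Akr1c14 peaks at 257 CPM at P1, and Cyp11a1 is highest at E11.5 (77.0 CPM). The E11.5 library is labelled gonad, and 28.4% of its cells had a Y-linked UMI.

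In Gng13-low cells Hsd3b1, Hsd17b1, Cyp19a1, Akr1c14 and Akr1cl were at least 2-fold higher at P5 than at E12.5, and Cyp11a1 and Srd5a1 were at least 2-fold lower. These were 5 of 10 members higher (12.3% of all genes counted) and 2 lower (11.0%). Star, Cyp17a1 and Hsd17b7 stayed within 2-fold. Hsd3b1 was 55.5 times higher (42.3 to 74.1), Hsd17b1 30.8 times (17.1 to 62.0), Akr1c14 9.02 times (7.63 to 10.7) and Akr1cl 4.10 times (3.96 to 4.24). Cyp19a1 was at least 6.88 times higher, with 0 UMIs at E12.5, 36 at P5 and its highest level, 4.53 CPM (3.06 to 6.47), at P1. Cyp11a1 was 17.2 times lower at P5 (7.91 to 44.3) and Srd5a1 2.10 times lower (1.35 to 3.30). The Gng13 gate took different shares of cells at these ages. Gng13-high cells were 401 of 1144 pregranulosa cells at E12.5 and 139 of 1532 at P5. The part of this shift in the folds was not tested.

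In Gng13-high cells 3 of 8 members counted were at least 2-fold higher at P5 (12.53% of all genes), namely Akr1c14 by 8.60 times, Hsd3b1 by 5.09 times and Akr1cl by 2.04 times, and 1 was lower (9.59%), Cyp11a1 with 38 UMIs at E12.5 and 1 at P5. In stroma 3 of 6 were higher (10.7%) and 2 lower (12.7%). Akr1cl was 10.8 times higher (9.61 to 12.2), and Star and Hsd17b7 were 3.17 and 2.11 times lower. The other 2 counted as higher, Hsd3b1 and Akr1c14, rested on 1 UMI each at E12.5. Their stromal levels at P5 were near those of erythroid cells. Hsd3b1 was at 6.52 CPM against 6.83, and Akr1c14 at 6.84 (5.27 to 8.73) against 3.79 (1.82 to 6.97). The part of free RNA in these rises was not tested. In Gng13-low cells the share of cells with an Hsd3b1 UMI after thinning was 13.3% (11.1 to 15.8) at P1 and 36.1% (33.5 to 38.8) at P5, against 1.07% of erythroid cells at P5.

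At P5 the Gng13-low cells differed among themselves along Amh, a hormone of granulosa cells in growing follicles, in a split chosen after the values were seen. Hsd3b1 was at 303 CPM (291 to 316) in 889 cells with no Amh UMI, 596 (566 to 627) in 255 cells with 1 or 2 and 681 (646 to 717) in 168 cells with at least 3. Hsd17b1 was at 27.5 (23.8 to 31.5), 60.03 (50.8 to 70.5) and 114 (100 to 130) CPM. Akr1c14, at 191, 218 and 179 CPM, and Hsd17b7, at 28.6, 29.0 and 25.6, did not follow that order, and Cyp19a1, at 1.51, 4.83 and 6.17 CPM, rested on 11, 12 and 13 UMIs. Median depth rose with Amh, at 7734, 8987 and 11692.5 UMIs per cell. Thinned to 2000 UMIs, the shares of cells were 24.9%, 57.3% and 62.5% for Hsd3b1 and 4.78%, 11.8% and 17.3% for Hsd17b1. Of the other listed genes of growing granulosa cells, Inha and Nr5a2 moved the same way, from 440 to 1560 CPM and from 59.99 to 148 CPM. Fshr gave 5, 11 and 3 UMIs, and Esr2 is not reported here. These are cells of 1 library, so no test was made.

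**Figure D3:**
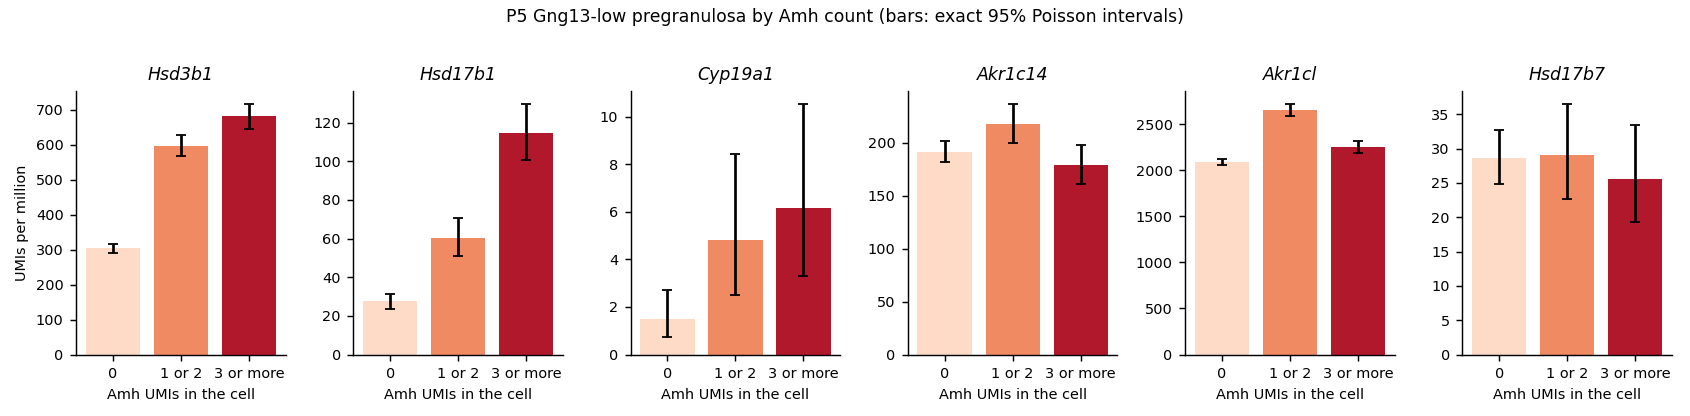
Level in CPM of 6 genes in P5 Gng13-low pregranulosa cells with 0, 1 or 2, and at least 3 Amh UMIs, with exact 95% Poisson intervals as error bars and a separate axis for each gene. Hsd17b1 rises from 27.5 to 114 CPM and Hsd3b1 from 303 to 681 CPM, while Akr1c14 stays between 179 and 218 CPM.

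Cyp11a1 (chr9:58006411-58027023, plus strand), the entry enzyme of the route, was found in different cells at different ages. Gng13-low cells held 77.0 CPM (63.2 to 93.0) at E11.5 and 10.1 (7.88 to 12.8) at E12.5, and then 0.935, 1.23, 1.08, 1.06 and 0.590 CPM. At E11.5 the level was 116 CPM (87.0 to 152) in the 49 of these cells with a Y-linked UMI and 58.2 (43.8 to 75.7) in the 93 without, and a cell without such a UMI can still carry a Y chromosome. From E14.5 the immune class was highest, with 20.1, 68.7, 113, 9.58 and 20.9 CPM, where its level had been 0 at E11.5 and E12.5. All 175 UMIs of the immune class were in 60 cells with at least 3 UMIs of Cma1, Cpa3, Tpsb2, Mcpt8 and other granule genes known from mast cells and basophils, a group chosen after the values were seen. These 3, 21, 19, 9 and 8 cells of E14.5 to P5 held 184, 212, 404, 252 and 1612 CPM, and the other 646 immune cells of these ages held 0 UMIs. At P1 Gng13-high cells held 5.34 CPM (3.05 to 8.68), and 2 of their cells had at least 3 UMIs.

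**Figure D4:**
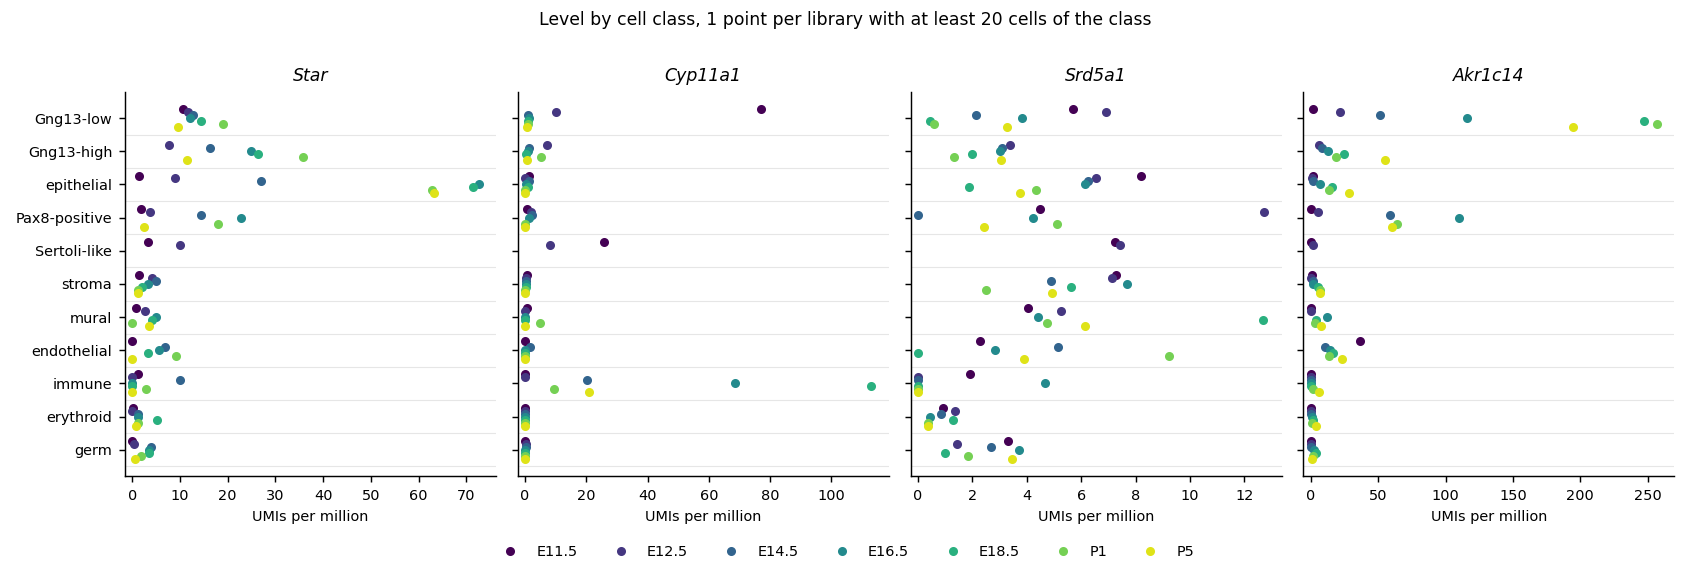
Level in CPM of Star, Cyp11a1, Srd5a1 and Akr1c14 in 11 cell classes, 1 point for each library with at least 20 cells of the class, coloured by age. Star is highest in epithelial cells from E14.5 (up to 72.5 CPM), and Cyp11a1 in Gng13-low cells at E11.5 (77.0 CPM) and in immune cells from E14.5 (up to 113 CPM). In the E11.5 gonad library 28.4% of cells had a Y-linked UMI. Akr1c14 is highest in Gng13-low cells at E12.5 and from E16.5 (up to 257 CPM), in endothelial cells at E11.5 and in Pax8-positive cells at E14.5.

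Of 50823 cells, 2864 had a Star UMI, 450 a Cyp11a1 UMI and 64 both, and 5 cells had at least 2 UMIs of each. In each of the 7 libraries more cells held both than independence of the genes within that library would give, with 15 against 1.89 at E11.5, 18 against 7.25 at E12.5 and 14 against 6.77 at E16.5, over cells that differ in class and depth. After thinning, at most 3 cells of a library held both. Star, Cyp11a1 and Hsd3b1 occurred together in 13 cells, and with Cyp17a1 in 1. No cell held Cyp11a1, Hsd3b1, Cyp17a1 and Cyp19a1 together, which allows a share of up to 0.0059% of cells, and this limit holds only for cells with a UMI, since most transcripts of a cell are not captured.

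Members with more UMIs shared cells more often. At P5, 810 of the 851 Gng13-low cells with Akr1c14 also had Akr1cl (95.2%), in a class where 91.8% of all cells had it. Thinned to 2000 UMIs, 294 cells had both and 290 would if the genes were independent, while the same counts were 181 and 141 at E16.5 and 189 and 152 at P1. Hsd3b1 and Akr1c14 met in 167 thinned cells at P5 against 124, and Hsd3b1 and Hsd17b1 in 47 against 36.5. Star and Hsd3b1 met in 5 thinned Gng13-low cells at P5 against 8.30, and in 14 Gng13-high cells at E16.5 against 9.62. Cells of 1 library are not replicates, and these counts were not tested.

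Of 67 further genes of steroid synthesis and response listed beside the members, 65 were in the gene list. Between the pregranulosa classes 43 were tested, 8 were higher in Gng13-low cells and 12 in Gng13-high cells (9.47% and 9.33% of all genes tested), with a median log2 difference of -0.07 against 0.01 over all genes. Of 10 genes of cholesterol supply, 0 were higher in Gng13-low cells and 5 were higher in Gng13-high cells (9.33% of all genes), among them Tspo, Stard4 and Scarb1, the last a receptor for high-density lipoprotein. Among electron donors of the mitochondrial enzymes, Fdxr was higher in Gng13-high cells by 0.96 ± 0.14 (log2, SE, edgeR adjusted p = 0.0022) and Fdx1 was not called (log2 difference 0.07 ± 0.08).

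Among other aldo-keto reductases 3 of 10 tested were higher in Gng13-low cells (9.47% of all genes) and 2, Akr1a1 and Akr1b10, in Gng13-high cells (9.33%), with a median log2 difference of 0.02. Akr1c18, which inactivates progesterone, was at 8.37, 10.7, 11.4, 23.4, 99.6 and 57.2 CPM in Gng13-low cells from E12.5 to P5. Gng13-high cells held 2, 4, 2, 7, 16 and 0 UMIs, at most 5.34 CPM. The log2 difference was 4.84 ± 0.28 (SE, edgeR adjusted p = 2.47e-05). Akr1c18 entered the test through the Gng13-low libraries, where it is high, so its call is no independent support for a difference. Akr1c19 was higher in Gng13-low cells by 2.21 ± 0.15. With 4 to 32 UMIs in the Gng13-high cells of a library, it entered the test in the same way. The Akr1c and Hsd3b families hold near-identical copies, so that the counts of single members are uncertain. Nr5a2, an orphan receptor that drives steroid genes in granulosa cells, was higher in Gng13-low cells by 3.55 ± 0.30 and reached 89.8 CPM at P5. Gng13-high cells held 2, 9, 27, 3, 4 and 15 UMIs of Nr5a2 from E12.5 to P5. Nr5a2 also entered the test through the Gng13-low libraries, so its call is no independent support either. Its relative Nr5a1 was lower in Gng13-low cells by 0.53 ± 0.08 (log2, SE, edgeR adjusted p = 0.00259). Nr3c2, the mineralocorticoid receptor gene, was higher in Gng13-low cells by 1.82 ± 0.30 over libraries. At P5 the order was reversed, with 3.87 CPM in Gng13-low cells and 4.60 in Gng13-high cells (6 UMIs). Gng13-low and Gng13-high cells held 1 and 0 UMIs of Nr3c2 at E12.5, and 24 and 2 at P1. Outside E16.5 (78 UMIs) Gng13-high cells held at most 13 in a library. Nr3c2 entered the test mainly through the Gng13-low libraries, so its call is no independent support for a difference. Foxl2 was higher in Gng13-low cells by 1.33 ± 0.14, and Esr1 was higher in Gng13-high cells by 0.87 ± 0.16.

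Against stroma 45 of the listed genes were tested, with 26 higher in pregranulosa cells and 9 higher in stroma (28.9% and 27.5% of all genes tested). Lhcgr, the luteinizing hormone receptor, was higher in pregranulosa cells by 5.62 ± 0.44 (log2, SE, edgeR adjusted p = 2.22e-05), at 2.22 to 21.3 CPM against at most 0.341 in stroma. With at most 3 UMIs in the stroma of a library, Lhcgr entered the test through the pregranulosa cells, where it is high. Its call is no independent support for a difference. Stroma was higher in Hsd11b2, which inactivates glucocorticoids (log2 difference -4.99 ± 0.32), and 4 of 5 steroid receptors tested were higher in stroma. Mc2r was also called higher in stroma (log2 difference -5.22 ± 0.41). With at most 4 UMIs in the pregranulosa cells of a library, it entered the test through stroma.

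The genes whose levels followed a member most closely were sought over 63 units of library and class among 12816 genes, on the scale of log2(CPM + 10). Hsd17b1 was most like Amh (Pearson r = 0.904), then Cacna2d2 (0.835) and Ly6g6e (0.727). Hsd3b1 was most like Wfdc10 (0.915), Acsm3 and Gm37350, Star like Cfap161 (0.902), Oplah and Epn3, Akr1c14 like Pcsk6 (0.893), Clu and Layn, and Akr1cl like Kctd14 (0.903), Ddit4l and Mettl24. Hsd17b7 was nearest to Elovl2 (0.749), Stx18 and Il13ra2, and Srd5a1 to A030001D20Rik (0.771), Stox2 and Grb10. Units of 1 library share its depth and its free RNA, and these correlations are a description only.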

How the data were processed

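Gonads of 7 ages were dissociated, and single cells were captured with 10x Genomics v2 chemistry. Per the labels, the authors made the deposited count matrices (whole UMI counts per gene and cell) with Cell Ranger 3.1.0 under default parameters and the mm10 build. No normalized value of theirs was used. The tests were first run on simulated counts with known changes.

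Cells with at least 200 genes were kept and sorted by marker gates on raw UMIs. Epithelial, Pax8-positive, Sertoli-like and mural cells were set apart before pregranulosa and stroma, and 2.28% to 10.1% of cells passing several of the other gates were left out as mixed. Many cells lay near the gate: of 1532 pregranulosa cells at P5, 618 held 3 or 4 UMIs of Wnt6 and Kitl. Scrublet (in scanpy 1.11.5) marked doublets. It marked 0.0242% of cells at E11.5 by its own threshold, and there and at E12.5 the highest 5% of scores were used instead. Doublets stayed in except in an alternative.

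UMIs were summed per library and class and divided by all UMIs of the class (CPM). Poisson, binomial and conditional ratio intervals were exact at 95%, and a class at 0 was set to 3 UMIs for a bound. Shares of cells were taken after thinning each cell to 2000 UMIs, shallower cells left out. The 2 contrasts used edgeR 4.0.16 (TMM scaling, filterByExpr, quasi-likelihood test) on the 6 ovary libraries with at least 50 cells of each class and an adjusted p threshold of 0.05, with library as a block, since both classes of a pair came from the same pool of cells. The p-values measure recurrence over ages, not over animals of 1 age. DESeq2 1.42.0, other gates, filters and scalings, and leaving out each library were alternatives.

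The text names all 10 members, up to 6 listed pathway genes per contrast with the largest change past the threshold, and for each member with at least 1000 UMIs the 3 genes most like it. Some genes that this rule selects are not reported here. Genes named outside this rule were chosen after their values were seen. The members, gates and lists were chosen with earlier results of these data known.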

Additional observations from a re-analysis of the deposited data

Results flagged for a closer look

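The sign of the Gng13-low over Gng13-high ratio changed with age for Star and Hsd3b1. The ratio of Star was 1.497 at E12.5, 0.776 at E14.5 and 0.488 at E16.5, then 0.545 at E18.5 and 0.533 at P1. The ratio of Hsd3b1 was 0.650 at E14.5 and 0.763 at E16.5, but 2.0 at P1 and 8.79 at P5. The 95% interval of each of these ratios lay on 1 side of 1 and covers counting error only. Each age is 1 library, so the difference between ages was not tested.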

How the results depend on the processing

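Between the pregranulosa classes 2298 genes were called. The count was 1465 for cells of 1000 or more genes with no more than 10% mitochondrial UMIs, and 1058 to 2499 when 1 library was left out, the low counts being without E16.5 (1058), E18.5 (1234) and P1 (1429). Without the replicate block, which pairs the classes of a library, 108 genes were called, 1 of 8 members in place of 6 (Cyp17a1), and 4656 genes in place of 7418 against stroma, and the adjusted p of edgeR was 0.052 for Akr1c14, 0.1 for Hsd17b7 and 0.487 for Akr1cl. The block changed no call of a member against stroma except that of Srd5a1 (0.0662). Leaving out 1 library, Hsd3b1 ranged from -0.16 (without P5, edgeR adjusted p = 0.638) to 0.56, and it was 1.06 without the block (0.32 with it, not called in any of 19 alternatives), and Srd5a1 ranged from -0.34 to 0.11. Srd5a1, near 0, turned to 0.053 with a gate of 2 UMIs, 0.13 with gates on thinned cells and 0.070 without the block, and was also above 0 without E14.5, E18.5 or P1. DESeq2 kept the call and direction of all 16 member tests, and the adjusted p of Star ran from 0.00246 to 0.512 over 19 alternatives. Hsd17b1 could be tested in 10 of these, since it was under the filter in the others. Scaling by total UMIs alone gave 1606 genes higher in Gng13-low and 914 in Gng13-high cells (63.7% higher, 50.4% with TMM), and shifted the median against stroma to 0.14. With a 3-fold limit 1 member was lower at P5 in Gng13-low cells and 1 in stroma, in place of 2 each, and with the Wnt6, Kitl and Gng13 rule alone 3 were lower in Gng13-high cells in place of 1. Of 106 levels, 37 moved beyond their interval under that rule, 26 under the stricter cell filter, 2 without cells holding a Y-linked UMI (an alternative chosen after seeing the data) and 0 without doublets. Thinning moved all 32 co-detection shares. Depth limits Cyp17a1, Cyp19a1 and Cyp11a1, with 616, 152 and 822 UMIs in all cells.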

Other observations

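Hsd3b6, a near-identical relative of Hsd3b1, was found in erythroid cells, where its level reached 513 CPM in 1 library against at most 0.756 CPM in Gng13-high pregranulosa cells of any library. The level of Hsd3b1 at E11.5 was highest in erythroid cells, at 2.98 CPM (1.70 to 4.84, 16 UMIs), an interval that overlapped those of most other classes. At E12.5 Akr1cl was at 1472 CPM (1408 to 1539) in the 78 Sertoli-like cells with a Y-linked UMI, above the 508 CPM (491 to 526) of Gng13-low cells without one, while Akr1c14 gave 0 UMIs in the same 78 cells. Among Gng13-low cells the 25 with a Y-linked UMI held 1341 CPM of Akr1cl (1214 to 1477). At E11.5 the corresponding levels of Akr1cl in Gng13-low cells were 1457 CPM (1348 to 1572) in 49 cells with such a UMI and 615 CPM (566 to 667) in 93 cells without. These splits were chosen after the values were seen and compare cells of 1 library, with no test.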
